A study of Mus musculus with 6 samples.

Results

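The collagen genes were measured in RNA of libraries labelled bone endothelial cells (BECs), the cells that line the blood vessels of bone. A gene was taken as a collagen when its identifier mapped to a protein-coding symbol made of "Col", a collagen number, "a" and a chain number, which found 44 of the 37991 genes listed. Of these, 11 encode chains of fibrillar collagens, 8 encode chains of basement membrane collagens (Col4a1 to Col4a6, Col15a1 and Col18a1) and 25 belong to the other collagens, and the rule uses no measured value. The study compared 3 female with 3 male libraries of c57/Bl6 mice of 12 weeks, with cells taken fresh from bone (tibia by the labels, tibia and femur by the general methods of the study) by means of endomucin, a surface glycoprotein of capillary and venous endothelium. The labels name no transgene or treatment, and they do not say whether a library was made from 1 animal or several. All p-values therefore measure the spread between these libraries, which may be technical.

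Collagens are secreted proteins of triple-helical chains. Fibrillar collagens assemble into the cross-linked fibrils that give bone and soft connective tissue their tensile strength, and osteoblasts lay down collagen I as the bulk of the organic matrix of bone. Basement membrane collagens form the sheet beneath endothelium: collagen IV builds its network, and collagens XV and XVIII attach to it and carry the precursors of restin and endostatin. The other collagens include the beaded filaments of collagen VI, the fibril-associated collagens (FACITs) that coat fibrils, the network-forming collagens VIII and X, and collagens that span the cell membrane.

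The libraries held 47678806 to 58325745 counts, and the 44 collagens together took 22163 to 63014 of them, or 0.0450% to 0.108%. Levels are given as CPM, the counts of a gene in 1000000 counts of the library, scaled by edgeR's trimmed mean of M-values (TMM), and values by library are always listed in the order of replicates 1, 2 and 3. A gene without a count could have been present at up to 3 counts, or 0.0477 to 0.0639 CPM depending on the library, a limit that covers counting error only. Of the 44 members, 25 had a mean of at least 1 CPM, 37 passed the filter on low counts, and Col4a3 was listed at 0 in all 6 libraries. Mia3, a secretion gene that is widely expressed, was listed at 0 as well. All 15 endothelial markers were above 1 CPM on average, and their sum was 385 to 554 CPM in females and 235 to 352 CPM in males. The 12 neutrophil markers summed to 18992 to 23244 CPM in females and 32324 to 44062 CPM in males, far above the endothelial sum in each library. No marker of these lists was at 0. The sums of 7 macrophage markers (3811 to 4017 CPM in females, 2524 to 3365 CPM in males) and of 6 erythroid markers (6645 to 9539 and 10001 to 14740 CPM) did not overlap between sexes, and those of 6 megakaryocyte markers did (48.7 to 190.2 and 37 to 97.0 CPM). No marker of any of these lists was called by edgeR. DESeq2 called 2 of the 7 macrophage and 4 of the 15 endothelial markers lower in males, and 8 of the 12 neutrophil markers higher. It called no erythroid or megakaryocyte marker, and over all genes it called 0.771% lower in males and 1.31% higher. The part of these cell types in the collagen values was not tested.

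To rank single genes, levels were taken per kilobase (kb) of annotated exon. On that scale the highest mean level over the 6 libraries belonged to Col1a2, at 14.7 CPM per kb. Col14a1, Col1a1 and Col6a1 came next at 11.5, 11.3 and 10.2 CPM per kb, and their ranges over libraries overlapped. Col4a1, Col5a3, Col4a2 and Col6a2 followed at 6.58, 5.64, 5.21 and 4.58 CPM per kb, with Col8a1 at 3.62. The next members, Col5a1, Col3a1 and Col11a2, lay at 2.09, 1.73 and 1.67 CPM per kb, and neighbours in this order differed by less than their spread over libraries. The 4 leading members kept their ranks when the longest annotated transcript gave the length, but Col1a2 then stood at 34.3 CPM per kb and Col6a2 at 8.32, so that Col6a2 moved from rank 8 to rank 5. By that length Col8a1 stood at 5.55 CPM per kb, and Col3a1 at 3.13 passed Col5a1 at 2.16. Within each sex Col1a2 was again highest, at 16.3 CPM per kb in females and 13.1 in males, but the order below it differed. In females it was Col14a1 (14.3), Col6a1 (13.2), Col1a1 (11.9), Col4a1 (8.41), Col4a2 (6.91) and Col5a3 (5.78 CPM per kb). In males it was Col1a1 (10.6), Col14a1 (8.75), Col6a1 (7.096), Col5a3 (5.51), Col4a1 (4.75) and Col4a2 (3.51 CPM per kb).

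**Figure D1:**
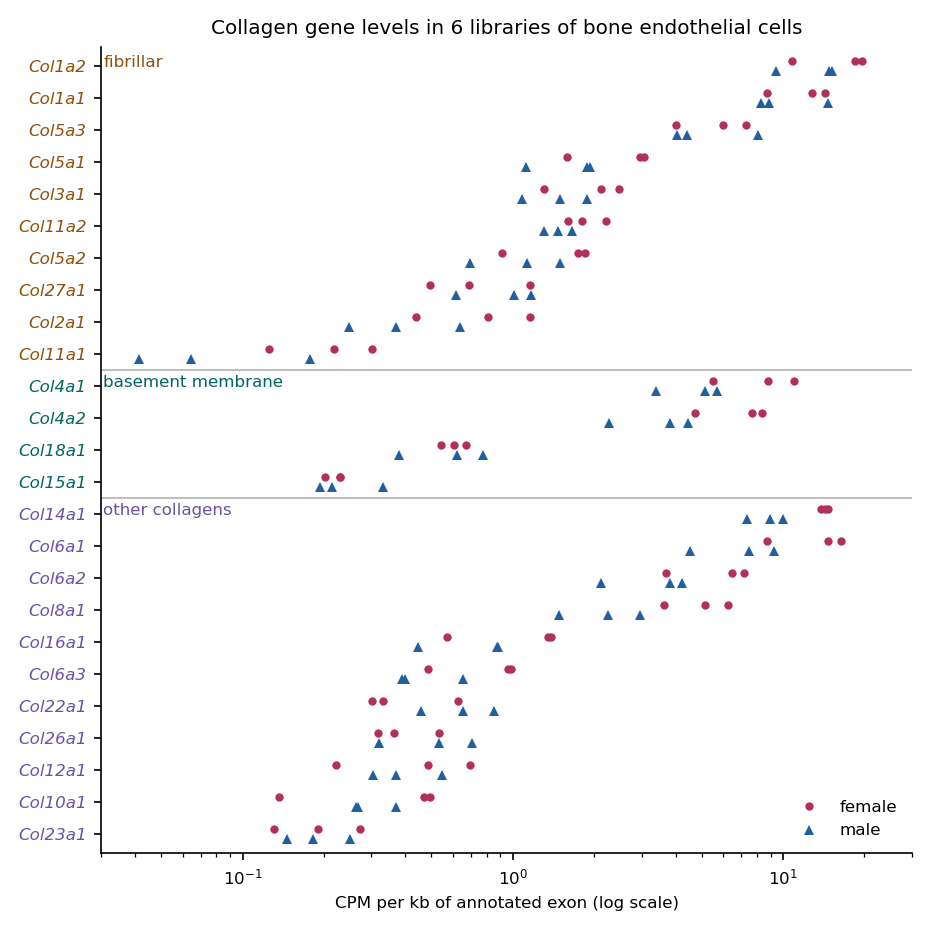
Level of the 25 collagen genes with a mean of at least 1 CPM, in CPM per kb of annotated exon on a log axis, with 1 point per library (circles, females; triangles, males) and genes ordered by mean level within class. Col1a2 leads the fibrillar collagens, Col4a1 and Col4a2 stand well above Col18a1 and Col15a1, and the 3 female points of Col14a1 and Col8a1 lie to the right of the 3 male points.

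Upstream sequence is shown for 4 members on which the comparisons below turn: Col1a2, the most abundant chain, Col6a1 and Col6a2, neighbours on chromosome 10, and Col8a1, which had the largest fitted sex difference among members above 1 CPM apart from Col11a1. Each line gives the 250 bases before the most upstream start in RefSeq on GRCm38.p6, 5' to 3' on the strand of the gene. Capitals mark 4 motifs read on either strand, the GC box GGGCGG, the CCAAT box CCAAT, the TATA box TATAAA and a CT-rich box CCCTCCC, and neighbouring matches can run into each other. The stretches lie at chr6:4505368-4505617 (plus strand), chr10:76726045-76726294, chr10:76623631-76623880 and chr16:57754738-57754987 (all minus strand).
Col1a2: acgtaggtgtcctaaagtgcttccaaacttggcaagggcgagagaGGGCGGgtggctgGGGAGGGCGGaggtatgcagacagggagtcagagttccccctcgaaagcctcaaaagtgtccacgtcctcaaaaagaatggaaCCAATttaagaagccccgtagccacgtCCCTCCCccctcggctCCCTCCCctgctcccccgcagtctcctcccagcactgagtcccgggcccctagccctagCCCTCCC
Col6a1: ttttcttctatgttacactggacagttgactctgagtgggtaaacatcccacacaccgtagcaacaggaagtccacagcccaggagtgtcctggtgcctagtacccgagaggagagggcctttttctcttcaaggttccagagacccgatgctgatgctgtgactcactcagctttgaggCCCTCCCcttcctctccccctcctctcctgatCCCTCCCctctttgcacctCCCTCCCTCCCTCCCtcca
Col6a2: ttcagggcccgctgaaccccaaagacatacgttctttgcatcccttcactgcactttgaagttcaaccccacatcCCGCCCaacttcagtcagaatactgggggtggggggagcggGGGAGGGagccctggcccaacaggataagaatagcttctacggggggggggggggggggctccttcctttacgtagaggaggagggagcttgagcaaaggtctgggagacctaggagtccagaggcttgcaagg
Col8a1: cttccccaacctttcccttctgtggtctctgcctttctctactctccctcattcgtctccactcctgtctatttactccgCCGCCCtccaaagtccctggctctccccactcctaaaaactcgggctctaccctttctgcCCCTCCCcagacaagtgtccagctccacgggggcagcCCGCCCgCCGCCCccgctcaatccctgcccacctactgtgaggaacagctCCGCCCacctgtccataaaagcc

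RefSeq gave such a stretch for 35 of the 44 collagens. The GC box was found in 21 of them (60.0%), against 33.0% of all 27025 stretches of the same length, and the CT-rich box in 16 (45.7%), against 19.1%. The CCAAT box was found in 12 (34.3% against 34.5%) and the TATA box in 5 (14.3% against 13.0%). Among the members shown, Col1a2 holds GC, CCAAT and CT-rich letters, Col6a1 holds the CT-rich box alone and in a run of repeats close to its start, and Col6a2 and Col8a1 hold GC and CT-rich boxes. None of the 4 holds TATAAA in this window. These are matches of letters and describe the sequence only.

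By class, the summed level of the other collagens was lower in every male than in every female library, whereas the fibrillar and basement membrane sums overlapped between sexes. Fibrillar collagens summed to 496, 296 and 461 CPM in the females and 425, 256 and 352 CPM in the males, or 418 ± 107 against 344 ± 84.6 CPM (SD, n = 3 each). Basement membrane collagens summed to 148, 80.6 and 126.6 CPM in the females and 73.4, 46.1 and 81.3 CPM in the males, or 118 ± 34.6 against 67.0 ± 18.5 CPM. Replicate 2 was the lowest library of its sex in both classes, and it was female replicate 2 that made the groups overlap in the basement membrane class, by less than 1 CPM against male replicate 3. The collagen IV chains alone did not overlap, at 112.7 ± 34.3 CPM in females and 61.1 ± 17.0 CPM in males, but by a margin as small. The other collagens summed to 358, 256 and 351 CPM in the females and 215, 147.8 and 217 CPM in the males, or 322 ± 57.0 against 193 ± 39.2 CPM. This sum rested on Col14a1, Col6a1, Col6a2 and Col8a1, which together made 280.3 ± 44.8 CPM in females and 157 ± 39.3 CPM in males. Without these 4, taken out after their values were seen, the class summed to 41.5 ± 12.7 and 35.6 ± 5.77 CPM and overlapped. Among the other collagens the beaded filament chains summed to 152 ± 47 CPM in females and 84.7 ± 26.5 CPM in males, and the FACITs to 123 ± 10.5 and 82.1 ± 12.0 CPM. The class sums are descriptions and were not tested.

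The balance of the classes was also described within each library, with no test. Fibrillar chains made up 49.5%, 46.8% and 49.1% of collagen CPM in the females and 59.5%, 56.9% and 54.2% in the males. Basement membrane chains made up 14.8%, 12.7% and 13.5% in the females and 10.3%, 10.3% and 12.5% in the males. Neither set of shares overlapped between sexes, but the basement membrane shares were separated narrowly and did overlap once levels were taken per kb. The ratio of fibrillar to basement membrane level, each summed as CPM per kb, was 2.56, 2.86 and 2.76 in the females and 4.60, 4.34 and 3.24 in the males. Its mean was 2.73 ± 0.153 in females and 4.06 ± 0.721 in males (SD, n = 3 each), and the groups did not overlap. With the longest transcript as length the means were 4.03 and 5.91, and against collagen IV chains alone 2.88 and 4.47, without overlap in either case. Male replicate 3 had the lowest ratio of the males, and without it the male mean was 4.47.

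**Figure D2:**
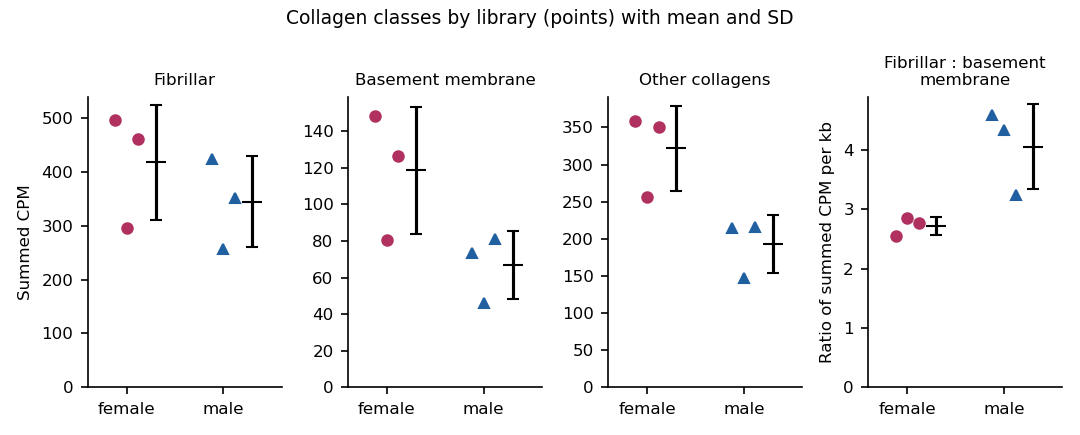
Summed CPM of the fibrillar, basement membrane and other collagens, and the ratio of fibrillar to basement membrane level per kb, with 1 point per library and the mean and SD of each sex beside them. The sum of the other collagens and the ratio do not overlap between sexes, and the fibrillar and basement membrane sums overlap.

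Each gene was then compared between sexes with edgeR's quasi-likelihood test, in which a negative log2 fold change means a lower level in males and a call needs a Benjamini-Hochberg adjusted p under 0.05 over all 19480 genes tested. None of the 37 collagens tested was called, against 8 genes or 0.0411% of all genes tested. At an unadjusted p under 0.05 there were 11 collagens lower in males, where 4.76% of all genes were, and 0 higher in males, where 5.03% were. These 11 were Col14a1, Col8a1, Col4a2, Col6a4, Col4a1, Col6a1, Col6a2, Col6a3, Col2a1, Col5a1 and Col11a1. The fitted change was negative for 27 of the 37 and positive for 10, with a median log2 fold change of -0.40 beside -0.00 over all genes tested. By class the median was -0.37 for 10 fibrillar, -0.03 for 5 basement membrane and -0.64 for 22 other collagens. The 3 males lay below the 3 females for 4 collagens tested (Col14a1, Col4a2, Col8a1 and Col6a4; 7.29% of all genes tested) and above them for 1 (Col4a4; 7.25%).

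DESeq2's Wald test, the tool named by the study's methods, called 5 of the 30 collagens to which it gave an adjusted p, all lower in males. They were Col8a1 (adjusted p = 0.000772), Col14a1 (0.000987), Col4a2 (0.0120), Col6a1 (0.0323) and Col4a1 (0.0408), and over all genes DESeq2 called 0.771% lower in males and 1.31% higher in males. The count rested on single libraries: it was 2 without female replicate 1, without female replicate 3 or without male replicate 2, 4 without male replicate 1, 7 without male replicate 3 and 8 without female replicate 2. Col14a1 and Col8a1 were called in each of these. The share of all genes called in each of these fits is not given here, so a change in collagen calls cannot be told from one over all genes.

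**Figure D3:**
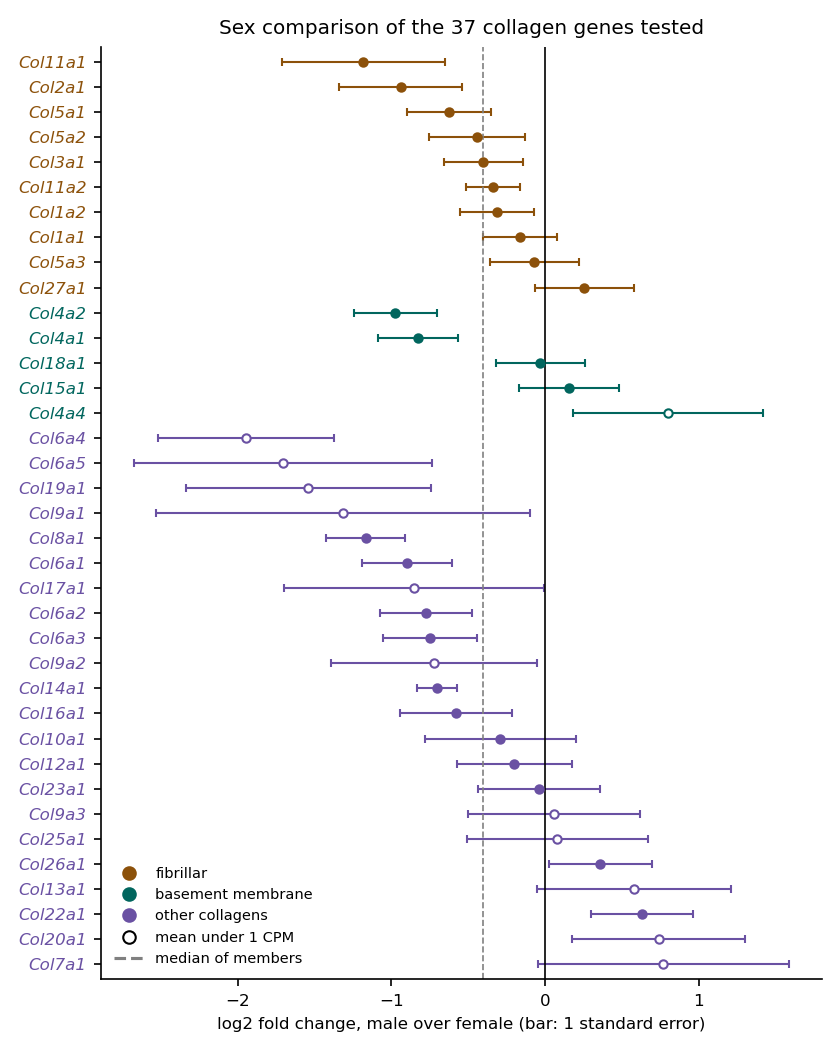
log2 fold change of males over females with 1 standard error for the 37 collagen genes tested with edgeR, grouped by class; open circles mark genes with a mean under 1 CPM and the dashed line is the median of all 37, -0.40. Col4a1 and Col4a2 stand apart from Col18a1 and Col15a1 in the basement membrane class, and the collagen VI chains all lie below 0.

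Of the fibrillar collagens, the chains of collagen I were the most abundant, and both overlapped between sexes. Col1a2 (chr6:4504814-4541555 on GRCm39), the alpha 2 chain of collagen I, measured 247, 137 and 234 CPM in the females and 192, 119 and 188 CPM in the males (log2 fold change -0.31, SE 0.24, adjusted p = 0.722). Col1a1 (chr11:94827050-94843868), the alpha 1 chain, measured 93.5, 57.1 and 83.7 CPM in the females and 96.4, 54.3 and 58.5 CPM in the males (log2 fold change -0.16, SE 0.24, adjusted p = 0.865). Both were lowest in replicate 2 of either sex, and the highest library was female replicate 1 for Col1a2 and male replicate 1 for Col1a1. Collagen I protein holds more alpha 1 than alpha 2 chain, but the Col1a2 level per kb was 1.03 to 1.67 times the Col1a1 level in each of the 6 libraries, or 2.17 to 3.50 times by the longest transcript. The ratio did not separate the sexes.

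Collagen V chains, which join collagen I fibrils and limit their diameter, included 3 members. Col5a1 (chr2:27776397-27929526), the chain found in most collagen V, measured 25.8, 13.8 and 26.6 CPM in the females and 16.8, 9.8 and 16.4 CPM in the males (log2 fold change -0.62, SE 0.27, adjusted p = 0.491). Col5a2, its usual partner, measured 20.6, 10.2 and 19.5 CPM in the females and 12.7, 7.73 and 16.7 CPM in the males (log2 fold change -0.44, SE 0.31). For both, female replicate 2 was within the male range and the other females stood above every male. Col5a3 (chr9:20681337-20726418), a chain of more restricted expression, measured 50.3, 27.7 and 41.3 CPM in the females and 55.5, 28 and 30.3 CPM in the males (log2 fold change -0.07, SE 0.29, adjusted p = 0.961). Its highest library was male replicate 1 and its groups overlapped throughout, and its fitted direction turned when female replicate 1, male replicate 2 or male replicate 3 was left out. The Col5a3 level per kb exceeded that of Col5a1 in every library, by 1.97 to 2.54 times in females and 2.34 to 4.19 times in males.

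Of the remaining fibrillar chains, Col3a1, of the fine fibrils of vessel walls and marrow stroma, measured 21.7, 13.4 and 25.5 CPM in the females and 19.4, 11.1 and 15.3 CPM in the males (log2 fold change -0.40, SE 0.26). Col11a2, a chain of collagen XI, which nucleates fibrils in cartilage, measured 13.4, 16.5 and 11.9 CPM in the females and 11, 9.7 and 12.3 CPM in the males (log2 fold change -0.34, SE 0.18). Both overlapped between sexes, with female replicate 2 the lowest female for Col3a1 and the highest library for Col11a2. Col27a1, a cartilage-associated fibrillar collagen, measured 15.1, 6.41 and 8.95 CPM in the females and 15.2, 13.2 and 8.03 CPM in the males, and its log2 fold change of 0.26 (SE 0.32) was the one positive value in the class. The cartilage chains Col2a1, of the main collagen of cartilage, and Col11a1 were low and scattered. Col2a1 measured 4.1, 10.8 and 7.6 CPM in the females and 3.47, 2.31 and 5.95 CPM in the males (log2 fold change -0.94, SE 0.40). Col11a1 measured 3.85, 2.8 and 1.6 CPM in the females and 2.28, 0.528 and 0.822 CPM in the males (log2 fold change -1.18, SE 0.53). The groups overlapped for both, and the 9 chondrocyte markers summed to 6.52 to 15.6 CPM in females and 6.09 to 11.8 CPM in males, whose part in these values was not tested. Col24a1, the last member, had at most 10 counts in a library and was not tested.

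In the basement membrane class the chains of collagen IV and the endostatin-type collagens differed in pattern. Col4a1 (chr8:11248423-11362826), the alpha 1 chain of the collagen IV found under nearly all endothelium, measured 81.8, 40.9 and 65.6 CPM in the females and 38.5, 25.4 and 42.4 CPM in the males (log2 fold change -0.83, SE 0.26, adjusted p = 0.336). Col4a2 (chr8:11362471-11499287), its obligatory partner, measured 59.8, 33.8 and 55.2 CPM in the females and 27.4, 16.3 and 32 CPM in the males (log2 fold change -0.98, SE 0.27, adjusted p = 0.269). Every male was below every female for Col4a2, and for Col4a1 male replicate 3 alone lay above female replicate 2. The 2 genes lie head to head on opposite strands, with starts 355 bases apart and 5' ends that overlap in GENCODE M39, and the ratio of Col4a1 to Col4a2 per kb stayed within 1.14 to 1.498 in all libraries. Col18a1, whose C-terminal fragment is endostatin, measured 4.72, 4.28 and 3.83 CPM in the females and 5.49, 2.68 and 4.41 CPM in the males (log2 fold change -0.03, SE 0.29). Col15a1, its relative in vessel and muscle basement membranes, measured 1.59, 1.4 and 1.6 CPM in the females and 1.35, 1.48 and 2.3 CPM in the males (log2 fold change 0.16, SE 0.33). Both overlapped between sexes at levels under 1 CPM per kb, and the fitted sign of each turned when single libraries were left out. The chains of specialised basement membranes such as those of kidney and lung were close to absent: Col4a4 had 5 to 12 counts in females and 10 to 19 in males, Col4a5 at most 15, Col4a6 at most 1, and Col4a3 none. Col4a4 and Col4a2 thus do not overlap between sexes in opposite directions, but Col4a4 (log2 fold change 0.80, SE 0.62) rests on a few counts.

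Collagen VI, a beaded filament anchored near basement membranes and around cells of the marrow stroma, led the other collagens together with Col14a1. Col6a1 (chr10:76543440-76562283) measured 85.6, 51 and 95.6 CPM in the females and 43.9, 26.4 and 54.2 CPM in the males (log2 fold change -0.90, SE 0.29, adjusted p = 0.357). Col6a2 (chr10:76429660-76459549) measured 71.2, 40.7 and 78.8 CPM in the females and 41.8, 23.2 and 46.3 CPM in the males (log2 fold change -0.78, SE 0.30, adjusted p = 0.446). Col6a3, the longest chain of the filament, measured 11.6, 5.86 and 11.8 CPM in the females and 7.9, 4.69 and 4.81 CPM in the males (log2 fold change -0.75, SE 0.31). In all 3 chains female replicates 1 and 3 stood above every male and female replicate 2 lay within the male range. Col6a1 and Col6a2 lie on the same strand of chromosome 10 with 83890 bases between them, and their ratio per kb was 2.26 to 2.36 in females and 1.97 to 2.20 in males, without overlap. Its size depends on the length used, since by the longest transcript it was 1.31 to 1.37 in females and 1.14 to 1.27 in males. The later chains were sparse: Col6a4 had 24 to 33 counts in females and 4 to 11 in males (log2 fold change -1.95, SE 0.58), Col6a5 had 1 to 41 counts and Col6a6 at most 4.

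Col14a1 (chr15:55171140-55384199), a FACIT that coats collagen I fibrils in soft tissue, had close values in the females. It measured 100.2, 96.7 and 103 CPM in the females and 69.9, 51.5 and 62.7 CPM in the males (log2 fold change -0.71, SE 0.13, adjusted p = 0.0859). Every male lay below every female, and this was the smallest adjusted p of any collagen. Col8a1 (chr16:57444621-57575100), a short-chain network collagen made by vessel cells, falls outside the rule for full statistics and is given because DESeq2 called it, after its values were seen. It measured 49.1, 40.1 and 28.4 CPM in the females and 17.7, 11.6 and 23.2 CPM in the males (log2 fold change -1.17, SE 0.26, adjusted p = 0.158). All males were below all females, with male replicate 3 and female replicate 3 nearest to each other. Its network partner Col8a2 had at most 20 counts and was not tested.

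The other FACITs and the rarer collagens above 1 CPM overlapped between sexes. Col12a1, a FACIT of dense connective tissue and periosteum, measured 10.6, 3.41 and 7.43 CPM in the females and 8.39, 4.65 and 5.65 CPM in the males. Col16a1, a FACIT found near vessels, measured 9.97, 4.14 and 9.73 CPM in the females and 6.4, 3.23 and 6.35 CPM in the males. Col22a1, a FACIT of tissue junctions such as that of muscle and tendon, measured 5.996, 2.88 and 3.17 CPM in the females and 6.23, 8.12 and 4.36 CPM in the males. Female replicate 2 was the lowest library for Col12a1 and Col22a1, and for Col16a1 it was second lowest after male replicate 2. Col26a1, whose role is less well known, measured 4.34, 2.59 and 2.98 CPM in the females and 4.35, 5.78 and 2.61 CPM in the males. Col10a1, made by hypertrophic chondrocytes, measured 0.429, 1.48 and 1.55 CPM in the females and 0.835, 1.16 and 0.822 CPM in the males. Col23a1, a transmembrane collagen, measured 1.61, 0.776 and 1.13 CPM in the females and 1.48, 1.08 and 0.864 CPM in the males. In these 6 genes no library stood apart by sex, and their log2 fold changes ran from -0.58 for Col16a1 to 0.63 for Col22a1. Below 1 CPM were Col7a1 of skin anchoring fibrils, the cartilage FACITs Col9a1, Col9a2 and Col9a3, the FACITs Col19a1 and Col20a1, and the transmembrane Col13a1, Col17a1 and Col25a1, all tested, with unadjusted p from 0.0810 to 0.919. Col28a1, with 9 to 27 counts in females and 1 to 4 in males, did not overlap between sexes but was too low to be tested.

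Because library-wide scaling moves all collagens together, chains were also set against Col1a2 in the same library, a reference chosen after the values were seen. Col4a1 had 33.1, 29.9 and 28.0 counts per 100 Col1a2 counts in the females and 20.1, 21.3 and 22.6 in the males. Col4a2 had 24.2, 24.6 and 23.6 in the females and 14.3, 13.7 and 17.0 in the males. Col6a1 had 34.6, 37.2 and 40.8 in the females and 22.9, 22.2 and 28.8 in the males. For these chains and for Col6a2, Col6a3 and Col5a1 every male ratio was below every female ratio, including female replicate 2, whose levels in CPM lay among the males for all of them but Col4a2. The spread of Col4a2 within females was 24.1 ± 0.548 counts per 100 (SD, n = 3), against 15 ± 1.79 in males. For Col1a1, Col3a1, Col5a2, Col5a3, Col8a1 and Col14a1 the ratios overlapped. No share of all genes without overlap on this scale is given here, so the number of chains that separate the sexes has no background. Col14a1 reached 70.5 counts per 100 in female replicate 2 and 33.4 to 44.0 in the other 5 libraries.

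**Figure D4:**
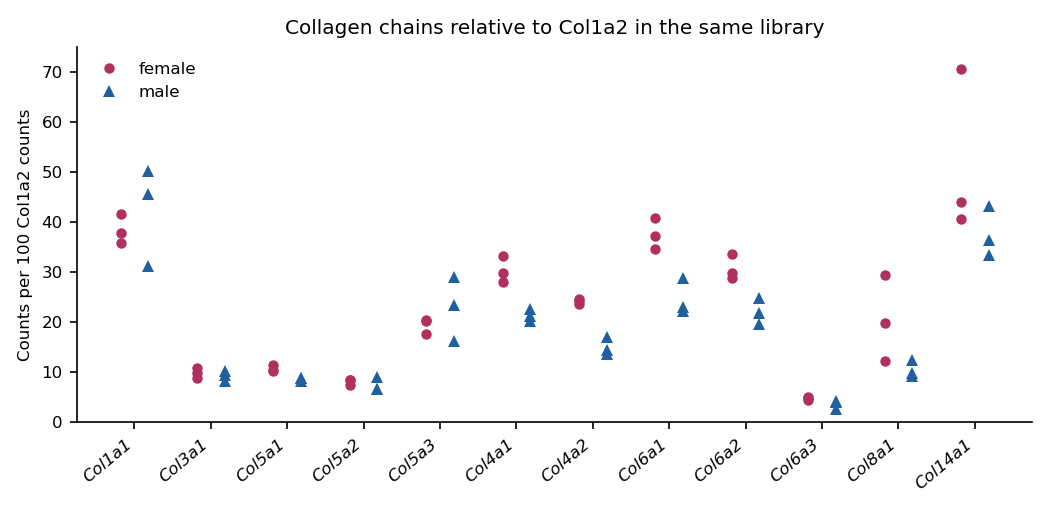
Counts of 12 collagen chains per 100 Col1a2 counts of the same library, with 1 point per library (circles, females; triangles, males). Col4a1, Col4a2, Col5a1, Col6a1, Col6a2 and Col6a3 separate the sexes, and the other chains overlap.

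Endothelial cells were 1 of several cell types with RNA in these libraries, and in bulk RNA fewer cells of a type cannot be told apart from less RNA per cell. All 15 endothelial markers had a negative fitted change, with a median log2 fold change of -0.81, and the male sums lay below the female sums. Stab2 and Pecam1 weighed most in these sums, at means of 93.3 and 85.4 CPM (log2 fold change -0.69, SE 0.16, and -0.23, SE 0.13). The other members ran from -1.44 (Flt4) to -0.10 (Erg), with Kdr at -1.41 and Cdh5 at -1.17. Ratios to the sum therefore rest most on Stab2 and Pecam1, and ratios to single markers were not taken. Col4a1 and Col4a2 together made 26.2, 19.4 and 21.8 counts per 100 endothelial marker counts in the females and 21.1, 17.7 and 21.1 in the males. The groups overlapped on this scale, with a mean of 22.5 ± 3.46 in females and 20.0 ± 1.97 in males. The 3 collagen VI chains likewise overlapped, at 30.03 ± 4.26 and 27.7 ± 3.94 counts per 100, and so did Col14a1 at 20.8 ± 3.75 and 20.7 ± 2.53 and Col8a1 at 8.21 ± 2.75 and 5.73 ± 0.827. Collagen I went the other way, since Col1a1 and Col1a2 together made 63.0, 50.4 and 57.4 counts per 100 endothelial marker counts in the females and 92.4, 73.9 and 70.0 in the males, without overlap.

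Against osteoblast lineage markers collagen I overlapped, and collagens IV and VI, Col14a1 and Col8a1 did not. The sum of these 13 markers was 200.1 to 314 CPM in females and 221 to 319 CPM in males, but its members went both ways, with 6 of 11 tested fitted lower in males and 5 higher. Spp1, the secreted phosphoprotein osteopontin, was higher in every male (log2 fold change 1.23, SE 0.31), while Alpl, the alkaline phosphatase of mineralisation, was at -0.90 (SE 0.27). Neither was called by edgeR (adjusted p = 0.244 and 0.314), and both were called by DESeq2. Col1a1 and Col1a2 together made 107 ± 14.2 counts per 100 marker counts in females and 85.6 ± 13.3 in males, with overlap. Col4a1 and Col4a2 made 51.3, 37.3 and 38.4 counts per 100 osteoblast marker counts in the females and 23.1, 18.9 and 23.3 in the males, without overlap. On this scale collagen VI made 56.3 ± 6.6 counts in females and 30.1 ± 4.77 in males, Col14a1 39.2 ± 8.12 and 22.5 ± 2.53, and Col8a1 15.6 ± 5.82 and 6.24 ± 1.005, all without overlap. With Spp1 left out of the list, a choice made after the values were seen, collagen I made 124 ± 21.7 counts per 100 in females and 121 ± 26.3 in males, with overlap, and collagen IV 48.9 ± 11.1 and 30.8 ± 5.28, without. Collagen VI and Col14a1 also did not overlap without Spp1, whereas Col8a1 did. The 10 markers of CXCL12-abundant reticular cells, the stromal cells that surround marrow sinusoids, summed to 2093 to 3869 CPM in females and 1436 to 3122 CPM in males, and all 10 had a negative fitted change. Cxcl12 and Lpl made most of this sum, at means of 1643 and 795 CPM (log2 fold change -0.43, SE 0.32, and -0.65, SE 0.31). Adipoq, at a mean of 84.2 CPM, was at -1.69 (SE 0.37), so ratios to the sum rest mainly on Cxcl12 and Lpl. Per 100 counts of the 10 markers, collagen VI made 4.65 ± 0.165 counts in females and 3.86 ± 0.523 in males, and collagen IV 3.49 ± 0.332 and 2.8 ± 0.373, both without overlap. On the same scale collagen I made 8.86 ± 0.558 counts in females and 11.2 ± 2.95 in males, Col14a1 3.32 ± 1.13 and 2.96 ± 0.84, and Col8a1 1.32 ± 0.592 and 0.794 ± 0.0472, all with overlap. The markers of mural cells (44.6 to 72.4 CPM in females, 37 to 53.4 CPM in males) and of fibroblasts (65.0 to 86.6 and 88.9 to 97.8 CPM) had smaller sums than those of osteoblast lineage in each library. The higher male sum of the fibroblast list came from Pi16 (log2 fold change 0.72, SE 0.14), and without it the sum was 22.4 to 44.5 CPM in females and 19.0 to 28.9 CPM in males. The part of each cell type in the collagen values was not tested.

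**Figure D5:**
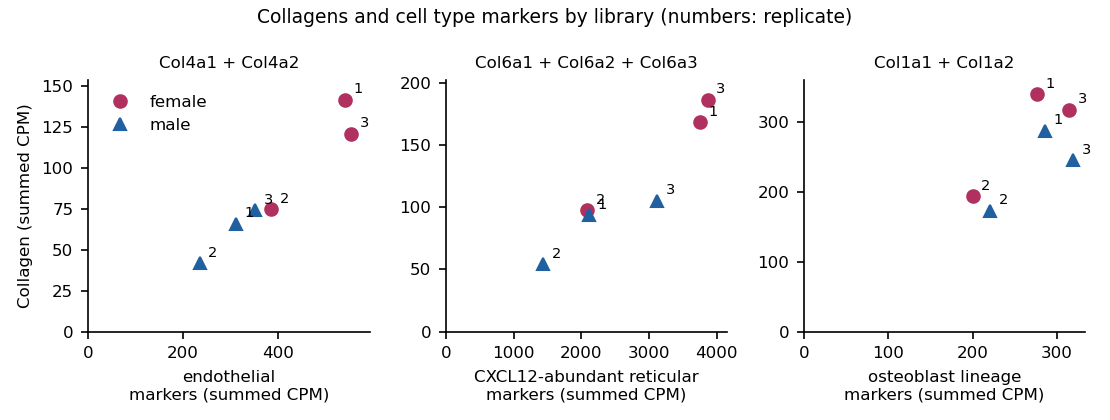
Summed CPM of collagen IV, collagen VI and collagen I chains (vertical axes) against the summed CPM of endothelial, CXCL12-abundant reticular and osteoblast lineage markers (horizontal axes), with 1 point per library numbered by replicate. In the left panel female replicate 2 lies beside male replicate 3, and in the right panel the libraries of both sexes cover the same range of marker level.

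Of the listed genes that make, cross-link, bind, sense or degrade collagen, 60 were measured and 57 tested. None was called by edgeR, with 15 lower in males and 3 higher at an unadjusted p under 0.05 (4.76% and 5.03% of all genes tested), and the median log2 fold change was -0.38. DESeq2 called 2 lower in males, Lox and Plod2, and 2 higher in males, Mmp8 and Mmp9 (0.771% and 1.31% of all genes). Among the enzymes and chaperones that modify and fold the chains, 17 of 18 had a negative fitted change. P4ha1, a subunit of the prolyl hydroxylase that stabilises the triple helix, measured 36.9, 32.6 and 39 CPM in the females and 26.7, 22.2 and 28.9 CPM in the males (log2 fold change -0.48, SE 0.14, adjusted p = 0.273). Serpinh1, the collagen chaperone, measured 82.7, 48.1 and 87.1 CPM in the females and 47.6, 31.1 and 62.7 CPM in the males (log2 fold change -0.63, SE 0.28, adjusted p = 0.513). The males were all below the females for P4ha1 and overlapped with them for Serpinh1. Plod2, the hydroxylase of telopeptide lysines, measured 4.52 ± 0.443 CPM in females and 2.2 ± 0.648 CPM in males (log2 fold change -1.04, SE 0.29, adjusted p = 0.262), without overlap.

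Of the 4 cross-linking enzymes tested, 3 had a negative fitted change. Lox, the lysyl oxidase that starts covalent cross-links between fibrils, measured 40.9, 20.8 and 33.4 CPM in the females and 12.4, 7.86 and 13.9 CPM in the males (log2 fold change -1.48, SE 0.27, adjusted p = 0.0854). Loxl1, a related oxidase, measured 27.3, 18.4 and 22.5 CPM in the females and 14.6, 9.95 and 17.2 CPM in the males (log2 fold change -0.71, SE 0.22, adjusted p = 0.314). All males were below all females for both. Loxl2, the most counted of the enzymes, measured 48.4 ± 6.02 CPM in females and 56.8 ± 8.67 CPM in males, with overlap (log2 fold change 0.23, SE 0.14). Of the proteins that bind collagen, Sparc, the bone glycoprotein osteonectin, measured 349 ± 103 CPM in females and 228 ± 74.6 CPM in males (log2 fold change -0.61, SE 0.27, adjusted p = 0.492). The small proteoglycans Bgn, Ogn and Prelp had log2 fold changes of -0.60 (SE 0.26), -0.74 (SE 0.40) and -1.34 (SE 0.46), and all 4 of these genes overlapped between sexes. In the same list Fmod and Lum, proteoglycans of the same family, had positive values of 1.30 (SE 0.47) and 0.39 (SE 0.35), at mean levels of at most 2.59 CPM in either sex, and 3 of 9 members tested were fitted higher in males.

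Of the genes of secretion and processing 7 of 10 tested, and of the receptors 8 of 10, had a negative fitted change. Mia2, which helps load procollagen at the exit sites of the endoplasmic reticulum, measured 90.9 ± 10.4 CPM in females and 104 ± 8.24 CPM in males (log2 fold change 0.19, SE 0.12). Adamts2, the main procollagen N-proteinase, measured 40.6 ± 12.9 CPM in females and 40.8 ± 12.1 CPM in males (log2 fold change 0.01, SE 0.27), and this sign turned with scaling by total counts and without single libraries. Itgb1, the beta chain of the collagen-binding integrins, measured 153 ± 13.9 CPM in females and 113 ± 12.7 CPM in males (log2 fold change -0.43, SE 0.13, adjusted p = 0.298), without overlap. Lair1, an inhibitory collagen receptor of leukocytes, measured 40.5 ± 1.82 CPM in females and 37 ± 7.97 CPM in males (log2 fold change -0.13, SE 0.16), overlapping. Of the enzymes of degradation, Ctsk, the collagenase of osteoclasts, measured 30.9 ± 1.04 CPM in females and 20.5 ± 4.9 CPM in males (log2 fold change -0.59, SE 0.17, adjusted p = 0.269), and each male was below each female. Mmp8 and Mmp9, the collagenase and gelatinase stored in neutrophil granules, were higher in every male than in every female. Mmp8 measured 255, 290.2 and 281 CPM in the females and 443, 470.3 and 430.1 CPM in the males (log2 fold change 0.70, SE 0.12, adjusted p = 0.0701). Mmp9 measured 488, 615 and 649 CPM in the females and 873, 888 and 796 CPM in the males (log2 fold change 0.55, SE 0.15, adjusted p = 0.259). Both belong to the neutrophil marker list, of which 11 of 12 members had a positive fitted change with a median log2 fold change of 0.67, and its part in the Mmp8 and Mmp9 values was not tested.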

How the data were processed

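RNA of 6 libraries was analysed, grouped by the sex given in the sample titles. The authors deposited whole-number counts of read pairs per gene for 37991 Ensembl genes, with no normalization. The paper's methods and the labels differ on how these counts were made. The methods name a total RNA library kit, STAR, featureCounts and GRCm39. The labels name a directional poly(A) library kit read with short paired ends, and the submitters' processing notes name TopHat2 2.0.11, featureCounts, mm9 and NCBIM37. Which kit made these libraries is therefore not settled. The annotation release and the strand setting of the counting are not given in the sources used here, so reads of overlapping genes, such as Col4a1 and Col4a2 at their shared start, may not have been assigned by strand. The sources used here name no molecular identifiers, so limits from counts cover counting error only.

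Identifiers were matched to GENCODE M39 on GRCm39 (31073 matched), which gave symbols, positions and exon lengths. Upstream sequences came from RefSeq on GRCm38.p6. The sexes were compared in R 4.3.3 by edgeR 4.0.16, with filterByExpr, TMM, a robust quasi-likelihood fit and sex as its only term, over 19480 genes. The standard error (SE) of a log2 fold change was its absolute value divided by the square root of the F statistic of the quasi-likelihood test. DESeq2 1.42.0 was the alternative. Further alternatives were DESeq2 size factors, total counts, no filter, at least 10 counts in every library, non-robust estimation, the replicate number as a block, leaving out each library, collagen IV chains alone as basement membrane, and the longest transcript as length. Leaving out libraries in DESeq2 and the ratios to marker counts, also without Spp1 or Pi16, and to Col1a2 were added after seeing the data. The fit was also run on simulated counts with set fold changes, and its outcome is not reported here. No 2 libraries were the same within counting error (lowest chi-square per degree of freedom over 15 pairs, 31.5).

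The members and gene lists were chosen with earlier results of these data known. By rule, values by library were given for members with a mean of at least 1 CPM. Statistics were given in full for the 8 members with the highest level per kb, the 2 highest of each class and any member called in the test with or without the replicate block. Of the pathway lists, genes called in either fit or else the 2 most abundant of a list were named. Plod2, Mmp9, Loxl2, Fmod, Lum, the single marker genes and the fold changes of further members were added after their values were seen. The listed symbol Ctage5 is an older name of Mia2, also listed, and was counted once.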

Additional observations from a re-analysis of the deposited data

How the results depend on the processing

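With DESeq2 size factors, total counts, non-robust estimation or at least 10 counts in every library, and without any 1 library, edgeR called 0 collagens, as in the comparison itself. It called 1 (Col14a1) without a filter on low counts, DESeq2 called 5, and the fit with a replicate block called 6 (Col4a1, Col4a2, Col5a1, Col6a1, Col6a2 and Col14a1, all lower in males) among 428 genes in all, 207 of them lower in males. Of the pathway genes, DESeq2 called 4, beside 0.771% of all genes lower in males and 1.31% higher. The replicate block called 10 of them, beside 428 of all 19480 genes tested. edgeR called 1 without a filter, and leaving out single libraries gave 0 to 2, the 2 without male replicate 3 (Mmp8 and Ctsk). For the fits without a filter or without single libraries no share over all genes is given here. Deviations from the group means correlated between sexes by 0.194, 0.0403 and 0.298 for replicate numbers 1, 2 and 3. Each female library correlated best with the male library of its number, as did male replicates 1 and 3 with the females. Male replicate 2 correlated best with female replicate 1 (0.131). Numbers 1 and 3 correlated with each other by -0.274 and -0.203. These values do not settle whether the libraries were paired, and the main fit did not take the numbers as pairs. Leaving out single libraries in DESeq2 gave 2 to 8 collagens. The mean ratio of fibrillar to basement membrane level was 2.88 in females against collagen IV alone, and 4.03 in females and 5.91 in males with the longest transcript; scaling cancels in a ratio. The class sums moved by less than 1 SD with either other scaling and with collagen IV alone. Of 234 fold changes of 18 members recomputed, 216 kept direction and side of the threshold, 12 passed it and 6 turned sign, and of 247 for 19 pathway genes 225, 17 and 5. Without single libraries the log2 fold change ran from -0.45 to 0.14 for Col5a3, from -0.27 to 0.21 for Col18a1, from -0.11 to 0.30 for Col15a1, from -0.23 to 0.21 for Adamts2 and from -0.23 to 0.039 for Lair1, and Adamts2 was at -0.030 with total counts. The cause of these shifts was not tested. With 3 libraries per sex, the SE of 0.13 to 0.30 for the members given in full limits what could be called, and members under 1 CPM rest on few counts.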
